A study of Mus musculus with 12 samples.

Results

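The 5 genes described here are Il10ra, Il10rb, Il22ra1 and Ifnlr1, which encode receptor chains of the IL-10 cytokine family, and Tyk2, which encodes a Janus kinase that these receptors use. They were listed by gene symbol, by a rule that uses no measured value but was set with earlier results of these data known, and are 5 of the 32285 genes counted in the single-cell RNA sequencing (scRNA-seq) of mouse small intestinal organoids. Organoids are crypt-derived epithelial cultures, grown here from BALB/c mice. The study asked how regulatory T (Treg) cells and their cytokines act on the epithelium, and compared 6 groups after 4 days of culture. Control organoids (Ctrl) were cultured alone. In the Treg group, 100000 allogeneic C57BL/6 T cells per well, sorted as CD25high FoxP3-GFP+, shared the medium with the organoids and were activated with CD3/CD28 beads and 30 U/mL IL-2. The Treg + aIFNg, Treg + aIL10R and Treg + aIFNg + aIL10R groups received blocking antibodies at 10 µg/mL against IFNγ, the IL-10 receptor or both. The IFNg + IL10 group had no T cells and received recombinant IFNγ at 0.25 ng/mL and IL-10 at 10 ng/mL. No group received either cytokine alone, so effects of IFNγ and of IL-10 in this group cannot be told apart. The organoids of all groups came from the same strain. Live EpCAM+ cells were sorted, marked by group with an oligonucleotide-tagged antibody (a hashtag) and pooled, so that every library held all 6 groups. The experiment was made 3 times, and these are the 3 replicates.

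Cytokines of the IL-10 family bind a pair of chains, one that sets which cytokine is recognised and one that is shared. IL10RA is the ligand-binding chain of the IL-10 receptor, and is known mainly from leukocytes. IL22RA1 binds IL-22, and also IL-20 and IL-24 with another partner, and IFNLR1 binds the type III interferons (IFNλ); both are known from epithelia, where IL-22 supports antimicrobial defence and stem cells and IFNλ supports antiviral defence. IL10RB is the second chain that the receptors for IL-10, IL-22 and IFNλ share. JAK1 is bound by the ligand-binding chain and TYK2 by IL10RB, and the pair phosphorylates STAT proteins, mainly STAT3 below IL-10 and IL-22.

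The 5 libraries held 35985 barcodes, of which 24320 carried a single hashtag and 11911 also met the study's limits on cell quality (1774 to 2120 cells per group). Between 9 and 24 barcodes were shared by any pair of libraries. The unique molecular identifiers (UMIs, 1 per captured transcript) of the cells of a group and replicate were summed, which gave 18 sums of 333 to 999 cells and 15087201 to 43938384 UMIs. Levels are UMIs per 1000000 UMIs of the sum (CPM). They come from transcript 3′ ends and are not divided by length, so levels of different genes are not compared. The 6 epithelial markers, Epcam among them, summed to 4694 to 5212 CPM in every sum, myeloid markers to 1.57 to 4.04 CPM and stromal markers to 0 to 0.180 CPM. A T cell list of 14 markers summed to 1.48 to 3.06 CPM in 16 of the 18 sums, but to 8.48 CPM in replicate 2 and 21.2 CPM in replicate 3 of the Treg + aIL10R group. There the 6 defining genes (Cd3d, Cd3e, Cd3g, Trac, Trbc1 and Trbc2) had 127 and 182 UMIs with none at 0. Each of these genes was found in 2 of the 954 cells of replicate 2, and in 2 to 4 of the 358 cells of replicate 3. In the other 16 sums the 6 genes had 0 to 4 UMIs, with 3 to 6 of the 6 at 0. T cells make Il10ra, Il10rb and Tyk2, so the effects of aIL10R on Il10rb and Tyk2 are also given without cells that held a T cell marker UMI. That limit left 10678 of the 11911 cells. Most UMIs of the list were of Ctla4 (986) and Lck (353), and Ctla4 stood at 1.88 to 2.21 CPM in control organoids, which had no T cells, so the limit also removed cells of cultures without T cells.

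Il10ra lies on chromosome 9 (GRCm38, 45253837 to 45269149, minus strand; ENSMUSG00000032089), Tyk2 on the same chromosome (21104068 to 21131243, minus strand; ENSMUSG00000032175) and Il10rb on chromosome 16 (91406164 to 91425834, plus strand; ENSMUSG00000022969). Ifnlr1 (135686287 to 135708181; ENSMUSG00000062157) and Il22ra1 (135728172 to 135752140; ENSMUSG00000037157) are neighbours on the plus strand of chromosome 4, with 19990 bases and 1 other annotated gene, a pseudogene, between them. The antisense gene 1700084C06Rik overlaps Tyk2 over 24326 bases and had 4141 UMIs in the kept cells, against 3774 for Tyk2. Reads were counted with the standard options of Cell Ranger, which assign a read to a gene only on its sense strand.

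Since Ifnlr1 and Il22ra1 were the members that passed the test after recombinant cytokines, the 250 bases before the transcription start of each are shown, from RefSeq on GRCm38.p6, plus strand, at chr4:135686207-135686456 for Ifnlr1 and chr4:135727909-135728158 for Il22ra1. RefSeq starts Ifnlr1 inside the gene as GENCODE M21 places it, so most of the Ifnlr1 window lies past the GENCODE start given above. They are printed in lower case throughout because neither holds a searched motif.
Ifnlr1: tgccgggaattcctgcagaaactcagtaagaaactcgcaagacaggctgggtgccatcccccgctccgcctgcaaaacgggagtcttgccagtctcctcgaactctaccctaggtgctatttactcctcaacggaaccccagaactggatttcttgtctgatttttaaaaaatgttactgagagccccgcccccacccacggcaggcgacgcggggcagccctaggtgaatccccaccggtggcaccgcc
Il22ra1: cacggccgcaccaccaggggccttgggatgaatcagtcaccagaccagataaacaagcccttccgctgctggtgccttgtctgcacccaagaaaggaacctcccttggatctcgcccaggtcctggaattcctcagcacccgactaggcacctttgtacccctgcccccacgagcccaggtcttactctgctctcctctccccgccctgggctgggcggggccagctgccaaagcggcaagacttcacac
The motifs searched on both strands were the gamma-activated site to which STAT3 dimers bind, written TTCNNNGAA, and the interferon-stimulated response element, written GAAANNGAAA. The first was in 7.02% and the second in 2.98% of 32851 promoter windows of the same length. The windows of Ifnlr1, Il22ra1 and Tyk2 held neither, which says only that these letters are not in those 250 bases. No window for Il10ra or Il10rb was used here.

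Il10ra, the chain that binds IL-10, was at the limit of detection in every group. It had 0 UMIs in 17 of the 18 sums and 2 UMIs (0.118 CPM) in replicate 3 of the Treg + aIL10R group. A count of 0 allowed up to 0.0367 CPM over the 81776974 UMIs of the control cells, or Il10ra UMIs in up to 0.169% of the 1774 control cells. Over all 11911 kept cells the level was 0.00369 CPM (exact Poisson 95% interval 0.000447 to 0.0133, counting error only). Without replicate 3 it was 0 of 437832019 UMIs, which allows up to 0.00685 CPM. One of the 2 cells held UMIs of 5 of the 6 defining T cell genes and 1 Epcam UMI among 20697 UMIs, so that 1 Il10ra UMI remained without cells that held a T cell marker. The other held none of the 6 and 146 Epcam UMIs among 50742 UMIs.

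Across all 35985 barcodes, before any limit on cell quality, Il10ra had 3 UMIs in 3 barcodes. In the 6 barcodes with UMIs of at least 2 of the 6 defining T cell genes, 1 held Il10ra (16.7%, exact binomial 95% interval 0.421 to 64.1; 7.35 CPM, Poisson interval 0.186 to 41.0). The 35931 barcodes with none of these genes held 2 Il10ra UMIs (0.00254 CPM), and the 48 barcodes with UMIs of 1 such gene held 0. The intervals of both levels do not overlap, but the first rests on 1 UMI. Whether the receptor protein was present cannot be read from these counts. Il10ra did not pass the filter on low counts and has no test.

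Il10rb, the shared chain, was detected in every sum. Its level in replicates 1, 2 and 3 was 23.2, 24.3 and 27.9 CPM in control, 24.6, 26.4 and 28.2 CPM in Treg, and 28.3, 26.9 and 25.7 CPM in the IFNg + IL10 group. With Treg it was 24.2, 26.0 and 25.5 CPM under aIFNg, 22.8, 24.5 and 27.6 CPM under aIL10R, and 23.3, 24.7 and 27.7 CPM under both antibodies. All 6 groups overlapped. The cytokine effect on the log2 scale was 0.13 (95% interval -0.02 to 0.27, adjusted p = 0.165 in edgeR's quasi-likelihood test with replicate as a block). The Treg effect was 0.08 (-0.07 to 0.22, adjusted p = 0.865).

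**Figure D1:**
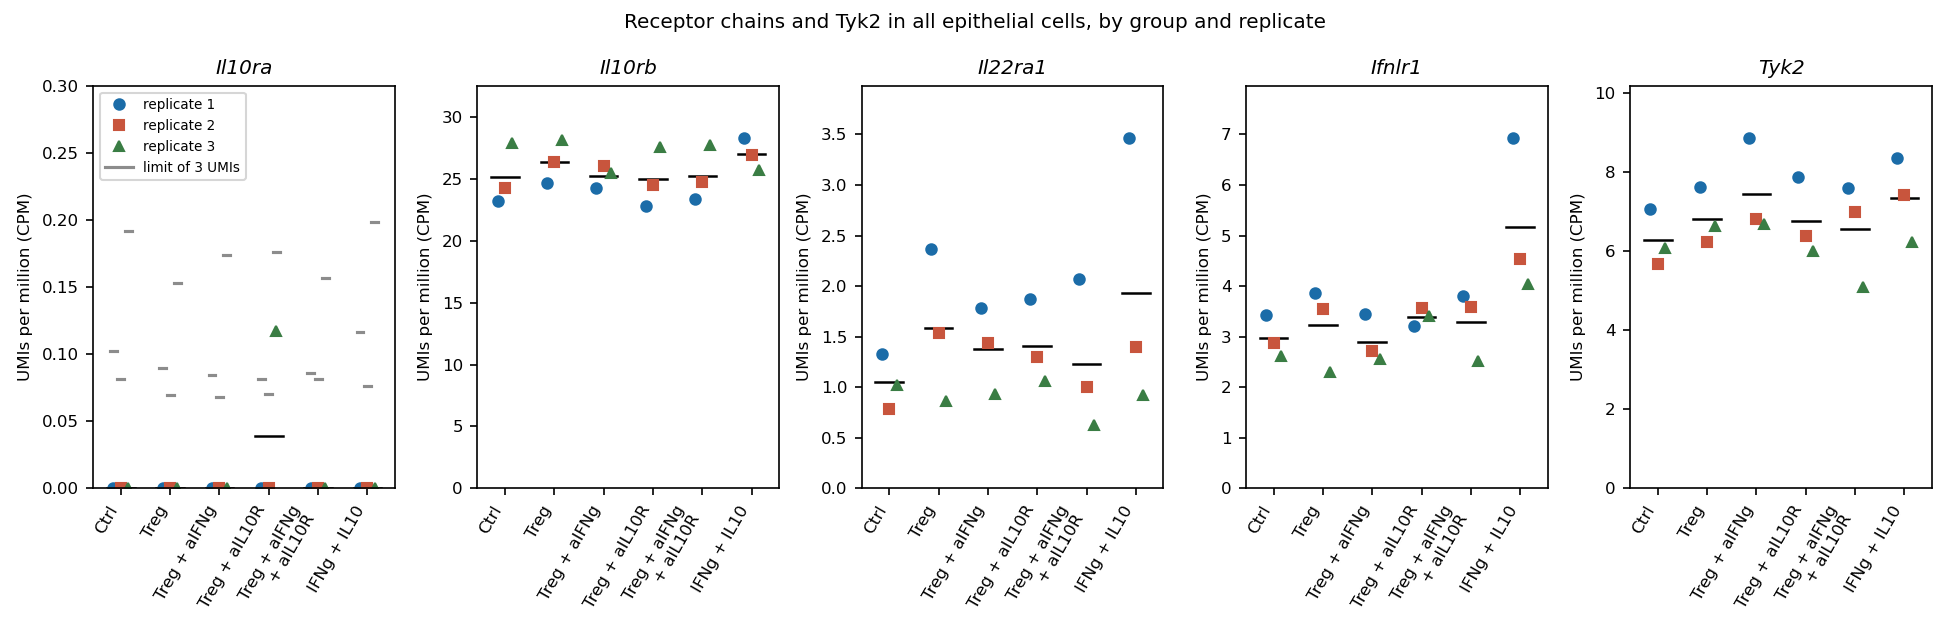
Level (CPM, linear axes that differ between panels) of each gene in all epithelial cells, by group on the x axis; points are the 3 replicates, black lines their means and, for Il10ra, grey ticks the level that 3 UMIs would give in that sum. Il10ra lies at 0 in 17 of 18 sums, Il10rb overlaps in all groups, and the 3 Ifnlr1 values of the IFNg + IL10 group lie above the 3 control values.

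Ifnlr1, the ligand-binding chain of the IFNλ receptor, rose with the recombinant cytokines. Control replicates had 3.44, 2.88 and 2.63 CPM and those with IFNg + IL10 had 6.92, 4.55 and 4.04 CPM. Every cytokine value lay above every control value, and the mean went from 2.98 ± 0.41 to 5.17 ± 1.54 CPM (SD, n = 3). The log2 fold change was 0.79 (SE 0.16, interval 0.45 to 1.13, adjusted p = 0.00196), and it was higher in 3 of 3 replicates. Treg cultures had 3.87, 3.55 and 2.30 CPM, and the cytokine group also exceeded them, by 0.66 (SE 0.15, adjusted p = 0.0104). This second call was lost without replicate 1 (0.53) and without replicate 3 (0.61). Against control, the rise was called without each replicate in turn (0.66 to 0.88).

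Il22ra1, the ligand-binding chain of the IL-22 receptor, also passed the test, but its replicates did not move alike. Control replicates 1, 2 and 3 had 1.33, 0.789 and 1.02 CPM, and those with IFNg + IL10 had 3.46, 1.40 and 0.928 CPM. Replicates 1 and 2 were higher than their controls, while replicate 3 was slightly lower, and the groups overlapped. The log2 fold change was 0.85 (SE 0.26, interval 0.30 to 1.41, adjusted p = 0.0201), and it rested on replicate 1: without it the change was 0.44 (adjusted p = 0.402), and without replicate 2 it was 0.87 (adjusted p = 0.0946). Without the replicate term it was 0.89 (adjusted p = 0.25). The counts were low, with 84 UMIs in all control cells and 158 with cytokines.

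Tyk2, the kinase bound by IL10RB, had 7.08, 5.68 and 6.08 CPM in control and 8.36, 7.42 and 6.23 CPM with IFNg + IL10. Each replicate was higher than its own control, but the groups overlapped. The log2 fold change was 0.25 (SE 0.10, interval 0.04 to 0.45), which did not pass after adjustment (adjusted p = 0.0611) and passed without cells that held a T cell marker UMI (adjusted p = 0.0295). With Treg + aIFNg it was 8.85, 6.80 and 6.68 CPM, again higher than each replicate's control, with a log2 fold change of 0.23 and an adjusted p of 1.

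In all, 2 of the 4 tested members were called after IFNg + IL10 against control, both higher, where 35.9% of 15002 genes were called and 18.4% were called as higher. DESeq2 also called 2. The count was 1 without the replicate term, 4 when sums were made per library (libraries 1 and 2, and 3 and 4, are splits of 1 replicate each, so these sums are not independent), and 0 when cells needed 80% of their hashtag UMIs from 1 tag, which left sums of fewer than 10 cells out of the fit. The median log2 fold change of the 4 was 0.52, against -0.01 over all genes tested. Against Treg, 1 of 4 was called, where 20.5% of genes were, 10.9% as higher and 9.62% as lower. The 3 values of each group did not overlap for Ifnlr1 alone, a pattern that 10.6% of genes showed in the higher direction.

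Treg co-culture and the antibodies moved no member past the threshold. Treg minus control called 0 of 4 members (0.153% of genes), Treg + aIL10R minus control 0 (0.453%, of which 0.427% higher and 0.0267% lower), Treg + aIFNg minus Treg 0 (0.193%) and Treg + both antibodies minus Treg 0 (0.207%). In the other 4 comparisons among these groups edgeR called 0 of 15002 genes, with 269 to 453 genes at an unadjusted p below 0.05, and DESeq2 called 0 or 1. At that unadjusted limit, 1 member stood out in Treg minus control (Il22ra1) and 1 in Treg + aIFNg minus control (Tyk2), and DESeq2 called 0 members in each of these 8 comparisons. Il22ra1 had 2.37, 1.53 and 0.868 CPM with Treg, which was higher than control in 2 of 3 replicates (log2 0.63, interval 0.08 to 1.18, adjusted p = 0.644). Blocking the IL-10 receptor in Treg co-culture changed Il10rb by -0.09 (interval -0.24 to 0.05), Ifnlr1 by 0.05 (-0.29 to 0.39), Il22ra1 by -0.17 (-0.69 to 0.35) and Tyk2 by -0.02 (-0.22 to 0.19) on the log2 scale. Without cells that held a T cell marker UMI, Il10rb changed by -0.11 (-0.26 to 0.03) and Tyk2 by -0.04 (-0.24 to 0.17) there, and against control Treg + aIL10R differed by -0.0049 (-0.15 to 0.14) in Il10rb and 0.13 (-0.08 to 0.34) in Tyk2. Removing cells with a T cell marker UMI left these 8 counts at 0.

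**Figure D2:**
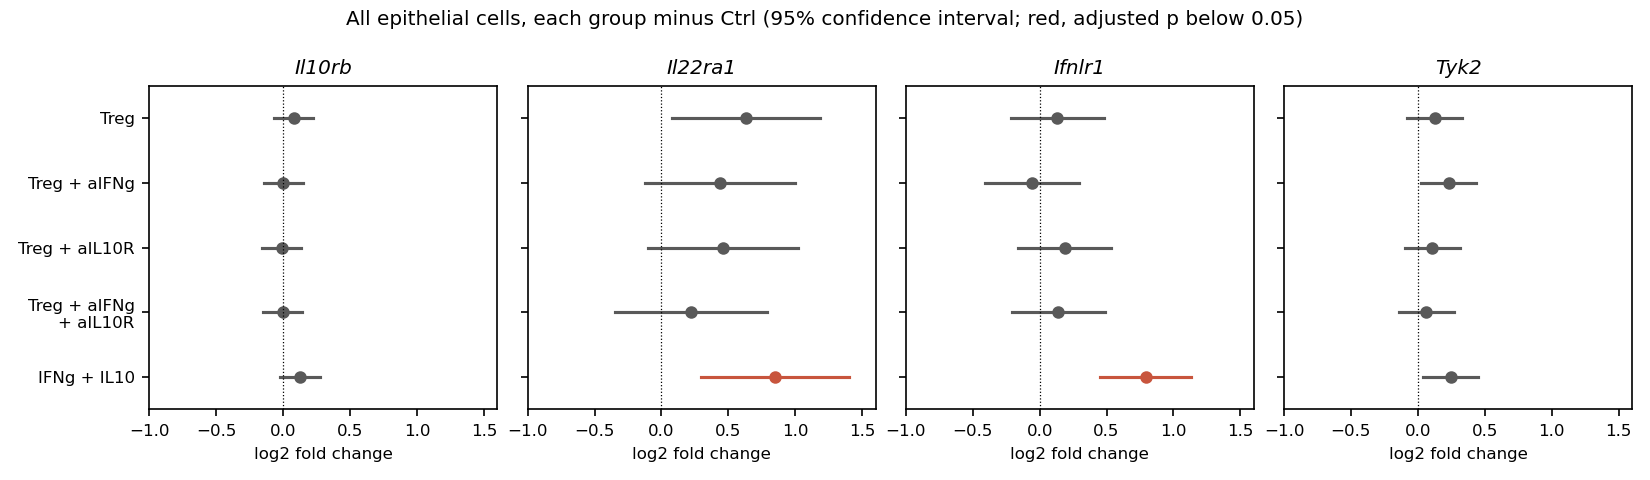
Log2 fold change (x axis) of each tested gene in all epithelial cells, for each treated group (y axis) against control; points are edgeR estimates and bars their 95% confidence intervals, red where the adjusted p is below 0.05. Only Ifnlr1 (0.79) and Il22ra1 (0.85) in the IFNg + IL10 group are red.

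Cells were placed in classes by their likeness to clusters of the control cells, with the 5 members and the pathway genes left out of clustering and placement. Classes are named by markers: ISC-like (intestinal stem cell, Olfm4 and Lgr5), TA-like (transit amplifying, Mki67), 2 enterocyte-like classes led by Cyp2c66 or by Apoa4, and goblet/Paneth-like. The control cluster led by Olfm4 and Lgr5 held 157 cells, and the ISC-like class 460 control cells. Clusters led by Cenpf and by Neil3 also had Olfm4 among their top genes. Their TA markers (mean log2 ratio 0.60 and 0.67) were near those of the Mki67 cluster (0.67), so ISC-like is not taken as free of cycling cells. The control cluster led by Cyp2c66 stood at 1.08 for enterocyte progenitor markers and 0.79 for enterocyte markers. The cluster with Apoa4 stood at 2.48 and 2.70. The Cyp2c66 class is therefore not taken as mature enterocytes. The remaining 2194 cells stayed unnamed, and 224 endocrine-like and 13 tuft-like cells were too few to test. When control cells of 1 replicate were placed from the other replicates, 77.0% to 86.1% returned to their own class.

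In control organoids Il10rb was highest in the enterocyte-like classes among the 5 classes tested. It averaged 47.4 ± 3.4 CPM in Apoa4 enterocyte-like cells and 35.3 ± 3.8 CPM in Cyp2c66 enterocyte-like cells, with ranges apart from each other and from the next of these classes. The 26 control endocrine-like cells had 45.1 ± 22.2 CPM on 21 UMIs, which overlapped all of them. TA-like (23.5 ± 2.4 CPM), goblet/Paneth-like (22.4 ± 6.8 CPM) and ISC-like cells (21.4 ± 3.4 CPM) overlapped. Against ISC-like cells, Apoa4 enterocyte-like cells were 2.23-fold and Cyp2c66 enterocyte-like cells 1.66-fold higher, each in 3 of 3 replicates. Il10ra had 0 UMIs in all 5 classes of control cells. Its 2 UMIs in the Treg + aIL10R group both fell in cells placed as ISC-like. These include the cell with UMIs of 5 of the 6 defining T cell genes, since no class for T cells was set.

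Against ISC-like cells, Ifnlr1 had higher means in both enterocyte-like classes and Il22ra1 in Apoa4 enterocyte-like cells, each in 3 of 3 replicates and with no test. Ifnlr1 averaged 6.36 ± 0.07 CPM in Cyp2c66 and 5.75 ± 2.71 CPM in Apoa4 enterocyte-like cells, against 2.80 ± 0.45 CPM in TA-like, 2.48 ± 0.69 CPM in ISC-like and 2.34 ± 0.86 CPM in goblet/Paneth-like cells. The Apoa4 class overlapped both of its neighbours in this order. These Ifnlr1 levels rest on 6 to 85 UMIs per class, with 41 in the Cyp2c66 and 30 in the Apoa4 class. The log2 difference between Cyp2c66 enterocyte-like and ISC-like cells was 1.39, and 0.45 when classes were set by marker scores instead. Those scores set the Cyp2c66 class by enterocyte progenitor markers. Il22ra1 averaged 3.94 ± 1.13 CPM in Apoa4 enterocyte-like cells and 2.45 ± 1.40 CPM in goblet/Paneth-like cells, and 1.33 ± 0.44 CPM or less in the others. Its class levels rest on 6 to 23 UMIs each, and neighbours in the order overlapped. Tyk2 showed no order beyond its spread, from 7.90 ± 3.93 CPM in Apoa4 enterocyte-like to 4.54 ± 2.81 CPM in goblet/Paneth-like cells.

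**Figure D3:**
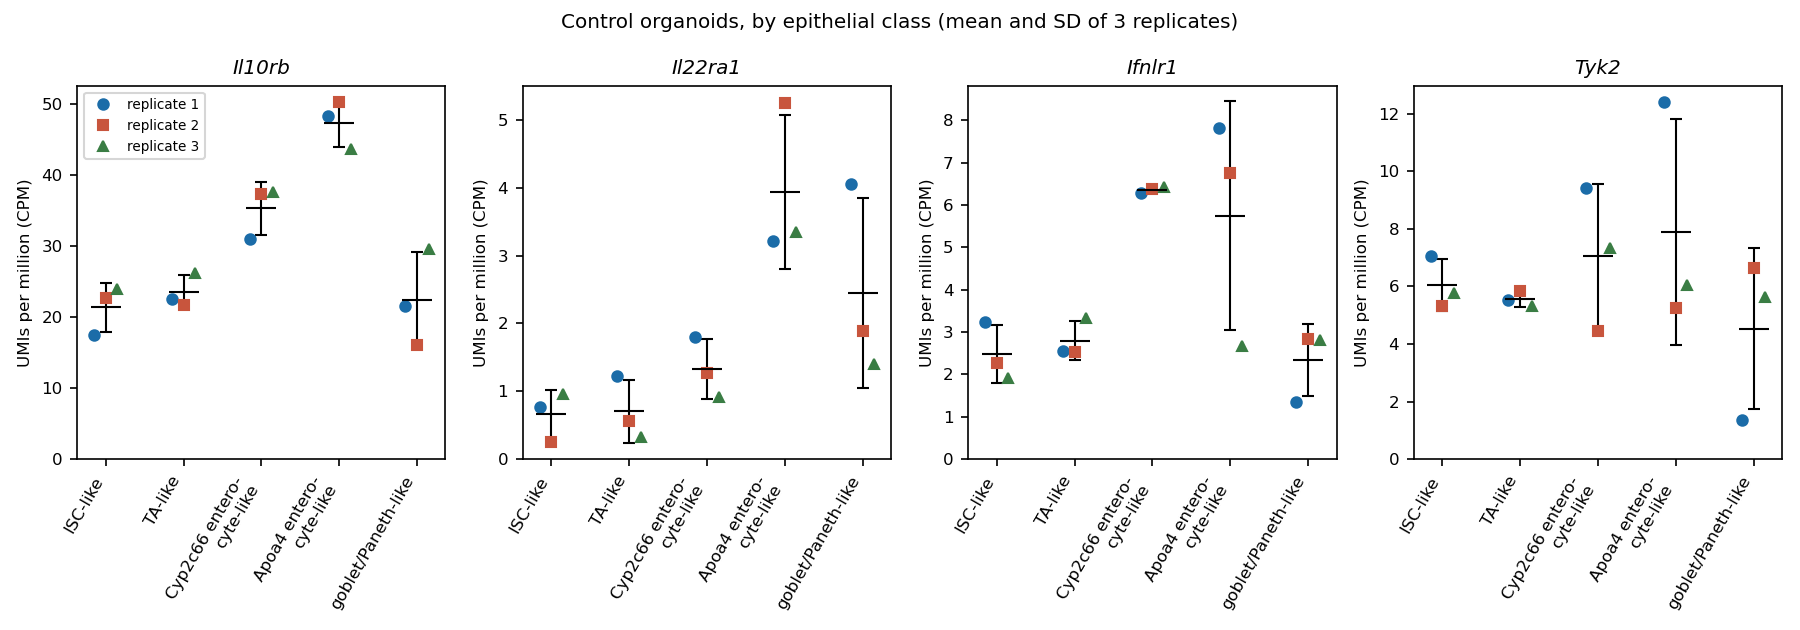
Level (CPM, linear axes from 0 that differ between panels) of the 4 detected genes in control organoids by epithelial class; points are the 3 replicates, bars the mean and SD. Il10rb is highest in Apoa4 enterocyte-like cells at 47.4 CPM, and the ranges of Tyk2 overlap between neighbouring classes.

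Within single classes, no member passed the test after IFNg + IL10, where 17.6% (ISC-like), 24.5% (TA-like), 17.4% (Cyp2c66 enterocyte-like), 24.7% (Apoa4 enterocyte-like) and 2.99% (goblet/Paneth-like) of genes did. The largest effects were Il22ra1 in Cyp2c66 enterocyte-like cells, at 1.35 (interval 0.31 to 2.39, adjusted p = 0.0669), and Tyk2 in goblet/Paneth-like cells, at 1.03 (adjusted p = 0.312). Ifnlr1 in ISC-like cells had 3.24, 2.27 and 1.92 CPM in control and 5.51, 3.34 and 8.28 CPM with cytokines, which did not overlap. The log2 change was 0.88 (interval 0.14 to 1.61, adjusted p = 0.095). The share of genes without overlap was not counted within classes, and in all cells 10.6% of genes lay higher in this way. In Apoa4 enterocyte-like cells Ifnlr1 had 7.81, 6.75 and 2.68 CPM in control and 13.5, 9.42 and 6.30 CPM with cytokines (0.76, adjusted p = 0.0791), higher in 3 of 3 replicates. With classes set by marker scores, Ifnlr1 in ISC-like cells (0.89, adjusted p = 0.0205) and Il22ra1 in Cyp2c66 enterocyte-like cells (1.2, adjusted p = 0.0328) passed. Of the 17 pairs of member and class, 5 reached an unadjusted p below 0.05 in edgeR, and none was called with DESeq2. Against Treg, 0 of 17 passed with edgeR and with DESeq2 and 1 had an unadjusted p below 0.05, where 9.14% (ISC-like), 13% (TA-like), 10.2% (Cyp2c66 enterocyte-like), 14.8% (Apoa4 enterocyte-like) and 1.35% (goblet/Paneth-like) of genes passed. Il22ra1 was not tested in ISC-like and goblet/Paneth-like cells, and Ifnlr1 was not tested in the latter, because of low counts.

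The classes took different parts of the cells in each group: the control and cytokine sums held 460 and 195 ISC-like, 174 and 288 Cyp2c66 enterocyte-like, and 130 and 194 Apoa4 enterocyte-like cells. Weighting each class by its share of the control UMIs left the log2 ratio of Ifnlr1 at 0.71 ± 0.15 (SD, n = 3; 0.76 ± 0.21 unweighted), higher in 3 of 3 replicates. For Il22ra1 it went from 0.69 ± 0.77 to 0.35 ± 0.50, higher in 2 of 3. For Il10rb it went from 0.11 ± 0.20 to -0.08 ± 0.09, and for Tyk2 from 0.22 ± 0.18 to 0.08 ± 0.16. The weighted values have no test.

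The estimated effect on Il10rb differed between Cyp2c66 enterocyte-like and ISC-like cells. In Cyp2c66 enterocyte-like cells it had 31.0, 37.3 and 37.6 CPM in control and 38.8, 46.6 and 47.8 CPM with cytokines, which did not overlap. In ISC-like cells it had 17.5, 22.6 and 24.0 CPM in control and 16.2, 19.1 and 16.6 CPM with cytokines, lower in 3 of 3 replicates with overlap. How many genes had no overlap in the Cyp2c66 class was not counted. The effects were 0.35 (adjusted p = 0.0743) and -0.22 (adjusted p = 0.331), neither called alone. Their difference was 0.59 (SE 0.19, interval 0.21 to 0.98, adjusted p = 0.0439), where 7.62% of 11916 genes were called. For Apoa4 enterocyte-like minus ISC-like cells the difference was 0.41 (interval 0.02 to 0.79, adjusted p = 0.157), which did not pass. The first was the only call among 16 such differences, over which 0.294% to 14.6% of genes were called per class, and was lost without any 1 replicate (0.53 to 0.64, adjusted p = 0.122 to 0.278). The same test of the Treg effect called 0 of 16 with edgeR, where at most 0.042% of genes were called per class, and 0 had an unadjusted p below 0.05.

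**Figure D4:**
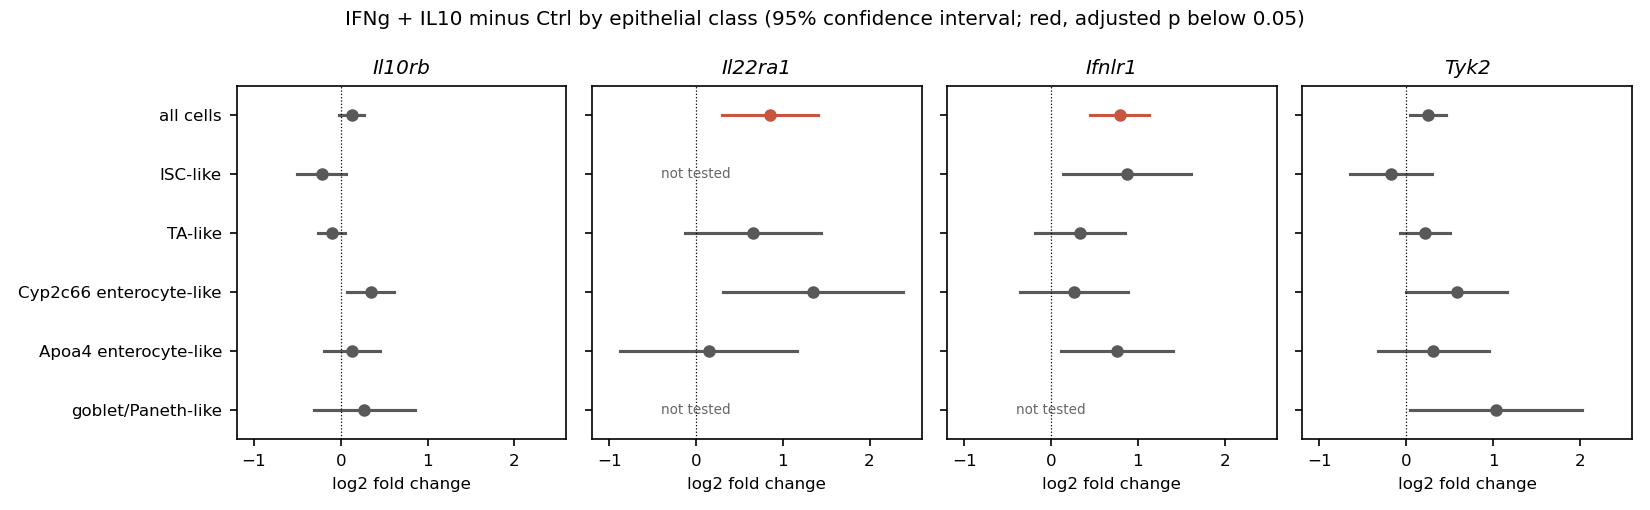
Log2 fold change (x axis) of each tested gene with IFNg + IL10 against control, in all cells and in each epithelial class (y axis); points are edgeR estimates and bars their 95% confidence intervals, red where the adjusted p is below 0.05. The red points are Ifnlr1 and Il22ra1 in all cells, and Il10rb lies above 0 in Cyp2c66 enterocyte-like cells (0.35) and below 0 in ISC-like cells (-0.22).

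The share of cells with at least 1 UMI was compared after each cell was thinned to 10000 UMIs by a single random draw. No kept cell had fewer UMIs, and how far the shares vary between draws was not tested. Ifnlr1 was found in 2.96% ± 0.79 of control cells and 6.40% ± 1.65 with cytokines, higher in 3 of 3 replicates (exact two-sided permutation p = 0.1, the smallest that 3 against 3 allows; 20 such tests). With replicates paired, the exact sign-flip p was 0.25, the smallest that 3 pairs allow, here and for each Tyk2 value below. Il10rb was found in 20.9% ± 2.7 of control cells and 23.5% ± 1.8 with cytokines (exact p = 0.2), and without thinning in 65.0% and 64.8%. Tyk2 was found in 4.26% ± 1.21 of control cells and 7.50% ± 0.11 with cytokines (exact p = 0.1), and in 6.56% with Treg, 7.77% with Treg + aIFNg and 6.32% with Treg + aIL10R (each exact p = 0.1, higher in 3 of 3 replicates). With Treg and both antibodies it was 5.82% (exact p = 0.3), also higher in 3 of 3 replicates. All these Tyk2 shares were set against the same control draw, so the comparisons are not independent. Mean Tyk2 levels over all UMIs differed less, at 6.28 CPM in control and 6.55 to 7.44 CPM in the treated groups. Without thinning, cells with UMIs of both Tyk2 and Il10rb made up 16.4% ± 1.5 of control cells. In the treated groups they made up 15.6% to 18.4%. Il22ra1 was found in 1.27% ± 0.51 and 2.00% ± 1.01 (exact p = 0.5). Defa24, a Paneth cell defensin, had a UMI in 77.1% ± 6.2 of goblet/Paneth-like control cells. It also had one in 36.4% ± 10.6 of ISC-like and 28.4% ± 10.96 of Apoa4 enterocyte-like cells. Whether free RNA, misplaced cells or doublets gave these UMIs was not tested. Il10rb was found in 17.0% ± 3.3 of ISC-like and 37.8% ± 6.8 of Apoa4 enterocyte-like control cells. The Defa24 shares of these 2 classes differed by less than their SDs, and the part of free RNA in the Il10rb shares was not tested.

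A receptor needs both chains in 1 cell, so pairs of UMIs were counted in thinned cells. Ifnlr1 and Il10rb were found together in 124 of 11911 cells (1.04%), Il22ra1 and Il10rb in 47 (0.395%), and Tyk2 and Il10rb in 172 (1.44%). Il10ra and Il10rb were found together in 0 thinned cells and in 2 cells before thinning. In control cells Ifnlr1 and Il10rb met in 0.576% ± 0.275, against 0.607% from the product of the single shares. With cytokines they met in 2.10% ± 0.58, against a product of 1.52%. Before thinning they met in 8.39% ± 0.62 of control cells, against a product of 7.83%. With cytokines this was 13.1% ± 3.3, against 12.2%, so both groups then lay slightly above the product. These shares are a description with no test, and thinning hides most true pairs.

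Genes whose level followed a member over the 30 means of class and group were sought among 9512 genes. Those most like Il10rb were Lactb (Pearson r = 0.972), Ndfip1 (r = 0.970) and Ndfip2 (r = 0.970), and those most like Tyk2 were Pex11g (r = 0.835), Iqsec2 (r = 0.822) and Itch (r = 0.807). The means share libraries and cultures, so these are descriptions. NDFIP1 and NDFIP2 are adaptors of NEDD4-family ubiquitin ligases, of which ITCH is one. The other members were below the level set for this search.

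The ligands of these receptors were near the limit of detection in the sorted cells. Il10 had 2 to 12 UMIs per group, and Il22, Il24, Ifnl2 and Ifnl3 had 0 UMIs in every group. None of the 7 ligand genes was tested. Of 6 tested chains of related receptors, 1 rose and 2 fell with IFNg + IL10, where 18.4% of all genes rose and 17.5% fell. The first was Ifnar2 (0.47, adjusted p = 0.00635), a chain of the type I interferon receptor. Both chains of the IFNγ receptor fell: Ifngr2 went from 77.2, 65.5 and 72.8 CPM to 48.4, 51.5 and 52.0 CPM (-0.49, adjusted p = 2.14e-05), and Ifngr1 changed by -0.29 (adjusted p = 0.00262). All 3 other Janus kinases rose, Jak3 by 0.67, Jak2 by 0.45 and Jak1 by 0.24.

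Below the receptors, 5 of 7 transcription factors rose with IFNg + IL10 and 0 fell. Irf9, the DNA-binding subunit of the interferon-stimulated factor ISGF3, rose by 1.64 on the log2 scale, Stat2 by 1.44 and Stat3 by 0.96. Of 9 inhibitors 3 rose and 2 fell, near the 18.4% and 17.5% of all genes. Socs1, which blocks JAK1, JAK2 and TYK2, went from 0.714, 1.17 and 0.640 CPM to 28.8, 7.42 and 12.6 CPM (4.18, adjusted p = 5.45e-05). Usp18, which limits type I interferon receptor signalling, rose by 2.50, Socs3 rose by 0.61, and Socs2 changed by -0.31.

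Genes known as targets of STAT3, the factor below IL-10 and IL-22, moved in part with IFNg + IL10. Both cytokines were given together, so which of them moved these genes cannot be told. Of 10 tested, 4 rose and 0 fell, where 18.4% of all genes rose and 17.5% fell. Pim1 went from 15.5, 13.1 and 14.3 CPM to 52.1, 31.3 and 29.4 CPM (1.39, adjusted p = 9.98e-06), Fut2 rose by 1.6, Socs3 by 0.61 and Bcl3 by 0.40. The median of the 10 was 0.11, against -0.01 over all genes tested. Among genes known as targets of the interferon-λ and type I interferon factor ISGF3, 7 of 10 rose and 2 fell, with Oasl2 (4.06), Isg15 (2.84), Usp18 (2.50) and Ifit1 (2.37) as the largest. All 12 genes known as targets of IFNγ rose, with a median of 5.39, or 5.08 with Gbp2 and Gbp3 at the bound set by their 0 control UMIs. Gbp2, a guanylate-binding protein gene, was at least 172-fold higher, on a limit of 3 UMIs over the control cells. Replicate 1 held most of its UMIs (16.8, 0.406 and 3.84 CPM), and without replicate 1 it was at least 23.7-fold higher. Ido1, which encodes a tryptophan-degrading enzyme, had 2 UMIs in control and 2481 with cytokines, of which replicate 1 held most (84.6, 3.23 and 11.7 CPM). H2-Aa, an MHC class II chain gene, had 60 and 21277 UMIs.

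In Treg co-culture against control, 4 genes of these lists passed, all higher: Irf1 (2.63), Irf9 (1.09), Ciita (4.13) and Psmb9 (1.6), with adjusted p from 0.00224 to 0.0347. Irf1 encodes a factor induced by IFNγ, Ciita drives MHC class II genes, and Psmb9 is an immunoproteasome subunit. The Treg samples also enter the comparisons with the antibodies. When aIFNg was added to Treg, Irf1 changed by -2.80, Irf9 by -1.11, Ciita by -4.81 and Psmb9 by -1.66 (adjusted p = 0.001 to 0.0168). No other gene of the lists passed there, where 0.193% of 15002 genes were called. When aIL10R alone was added, edgeR called 0 of 15002 genes, so the 0 genes of the lists say nothing particular to them. No STAT3 target passed in any of the 8 comparisons without recombinant cytokines. At most 3 of the 10 tested had an unadjusted p below 0.05 in edgeR, and DESeq2 called 0. In these comparisons edgeR called 0% to 0.453% of 15002 genes, so 0 of 10 is near the share of all genes.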

How the data were processed

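The 5 receptor and kinase genes and the pathway and marker lists were chosen with earlier results of these data known. Per the labels and the study's methods, the authors made the deposited UMI counts per gene and barcode with Cell Ranger 7.0.0 on GRCm38 from 10x 3′ version 3.1 libraries, and read hashtags with Seurat 4.0.5; a library 6, which they left out, was left out here. The counts are unnormalised and hold all cell barcodes. Here hashtags were called with HTODemux (Seurat 5.3.0, quantile 0.99, per library), singlets were kept when within the study's limits (UMIs from 10000 to 90000, genes from 3000 to 10000, mitochondrial share up to 8.5%), and control cells were clustered (scanpy 1.11.5, Leiden). Doublets within a group are not seen by hashtags; scrublet removal was an alternative. Scrublet's own threshold marked under 0.5% of cells, so the expected number with the highest scores was removed there.

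UMIs summed per group and replicate (15087201 to 43938384) were tested with edgeR 4.0.16 (TMM, filterByExpr, quasi-likelihood, replicate as a block, all 18 sums in 1 fit, Benjamini-Hochberg over all genes of a comparison, threshold 0.05), on R 4.3.3; DESeq2 1.42.0 was an alternative. The study's own model had library as a term; here the block is the replicate, of which libraries 1 and 2, and 3 and 4, are splits. The replicate numbers pair the sums, since each library held all groups. Deviations of same-numbered sums from their group means correlated at 0.386 on average and 0.101 at the lowest. In goblet/Paneth-like and Apoa4 enterocyte-like sums the lowest were -0.106 and 0.0739. Between numbers the mean was -0.242, but deviations add to 0 within a group. That alone pushes this value below 0, so it is no contrast. Replicates are separate experiments; intervals and limits on single counts cover counting error only. Positions are from GENCODE M21. Named genes are the 5 members in every comparison, the 4 with the largest called change of each list with cytokines, and the 3 genes most like a member with at least 5 CPM. One gene that this rule names is not reported here. The edgeR step was also run on simulated counts drawn from these sums. The simulated counts had the same dispersion for every gene and no replicate effect. That run therefore does not cover the spread between replicates seen here. No column of other samples was used (0).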

Additional observations from a re-analysis of the deposited data

Results flagged for a closer look

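The effect of IFNg + IL10 on Il10rb, the shared receptor chain, differed between Cyp2c66 enterocyte-like and ISC-like cells by 0.59 on the log2 scale (SE 0.19), and was picked out because this difference itself passed edgeR's quasi-likelihood test (adjusted p = 0.0439). It was 1 of 16 differences tested, at a background of 7.62% of genes called, and both sides come from the same cultures. The ISC-like sums with cytokines held 195 cells against 460 in control. The difference was lost without any 1 replicate, without TMM scaling (0.54, adjusted p = 0.0733) and without the replicate block (0.66, adjusted p = 0.413), and a cause was not tested.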

How the results depend on the processing

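Over 38 results, 269 values under alternative settings kept their direction and their side of the threshold or moved within the spread, 20 moved further, 14 lost the threshold and 1 reversed. This tally includes the counts of members called in the comparisons without recombinant cytokines. Those were 0 to begin with, where at most 0.453% of genes were called, so staying at 0 says little. Log2 fold changes in all cells that were not called at first, such as that of Tyk2, are not in the tally. After IFNg + IL10 against control, the number of members called went from 2 to 1 without the replicate block, to 4 with sums and block per library, to 0 with cells whose top hashtag held 80% of the hashtag UMIs, and to 1 to 2 when a replicate was left out; against Treg it went from 1 to 0 without the block and with the hashtag limit, and to 0 to 1 when a replicate was left out. The Il22ra1 change of 0.85 was 0.89 without the block, 1.87 with the hashtag limit and 0.44 to 1.13 when a replicate was left out, and of these settings it was called only without replicate 3. The Ifnlr1 change of 0.79 was 0.89 with the hashtag limit and not called there. The hashtag limit kept 4848 cells and sums of at least 10 cells, so control and Treg + aIFNg lacked replicate 3. The replicate block changed no call in the other comparisons of all cells. With classes set by marker scores, 2 pairs of member and class were called against control and 1 against Treg in place of 0, and the control difference of Ifnlr1 between Cyp2c66 enterocyte-like and ISC-like cells was 0.45. Differences of the cytokine effect between classes, chosen for alternatives after seeing the data, had 1 call with all replicates, TMM and the block, 0 without TMM, 0 without the block and 0 when any replicate was left out. The Il10rb share of cells was 2.57 percentage points higher with cytokines after thinning and -0.235 points without thinning. The cause was not tested for any of these. Il10ra counts were at or near the limit of detection in every group, and class levels of Il22ra1 and Ifnlr1 rest on few UMIs.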
